A study of Mus musculus with 16 samples.

Results

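The genes described here encode the protein parts of the mitochondrial ribosome and the enzymes that charge mitochondrial tRNAs. They were chosen by name: every protein-coding gene whose symbol is Mrpl or Mrps followed by a number, or an amino acid letter followed by ars2. The rule took 94 of the 25803 genes listed in the joined tables, of which 48 are named for the large subunit (Mrpl), 29 for the small subunit (Mrps) and 17 for tRNA synthetases. Large and small subunit genes below are so called by their names. All 94 members were among the 14488 genes that passed the filter on low counts.

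Bulk mRNA was sequenced from the livers of male mice on a high-fat diet (12 weeks), giving 16 libraries. The mice were either controls or liver-specific Cpt1a knockouts (LKO). Each genotype was sampled in 2 states, fasted for 16 h or refed for 6 h after that fast, which makes 4 groups of 4 libraries. The diet, the sex, the tissue and the preceding fast were shared by all groups, and how the liver deletion was made is not given in the sources used here. Cpt1a encodes carnitine palmitoyltransferase 1A, the enzyme through which long-chain fatty acids enter mitochondrial oxidation. No label says whether each library is a separate animal, so p-values measure the spread between these libraries.

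The mitochondrial ribosome translates the few messages made from mitochondrial DNA, all of which encode subunits of the oxidative phosphorylation machinery. Its RNA and its tRNAs come from mitochondrial DNA, while its proteins and the synthetases are encoded in the nucleus, made in the cytosol and imported. In the liver, which is rich in mitochondria, fasting favours fatty acid oxidation and ketone production, and refeeding shifts the tissue toward storage and growth.

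Library totals ran from 14721601 to 24618230 counts. Libraries are called S40 to S55, as in the deposited tables. The control libraries are S40 to S43 (fasted) and S48 to S51 (refed), and the LKO libraries are S44 to S47 (fasted) and S52 to S55 (refed). Cpt1a stood at 319 to 620 counts per 1000000 counts (CPM) in the 8 control libraries and at 39.9 to 126 CPM in the 8 LKO libraries, so the labels and the targeted gene went the same way. All 8 hepatocyte markers listed were expressed, at a summed 57003 to 86656 CPM per library. In bulk tissue, fewer cells of a type and less RNA per cell cannot be told apart. Differences were tested with edgeR's quasi-likelihood test across all 14488 genes, and a gene is said to have risen or fallen where its Benjamini-Hochberg adjusted p was under 0.05.

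Levels were compared between genes as CPM per kilobase of the deposited gene length. The median was 16.7 CPM per kilobase for the large subunit genes (range 2.04 to 113), 9.83 for the small subunit genes (2.25 to 50.6) and 4.40 for the synthetases (0.308 to 10.5). Mrpl12, which besides its place in the ribosome is reported to bind the mitochondrial RNA polymerase, was the highest of the large subunit at 113 CPM per kilobase, followed by Mrpl34 at 87.4. Mrps12 (50.6) and Mrps21 (48.7) led the small subunit. Mrpl19 (2.04) and Mrps25 (2.25) were the lowest of their subunits. Among the synthetases Lars2, for leucine, was highest at 10.5 CPM per kilobase, Iars2, for isoleucine, followed at 6.23, and Mars2, for methionine, was lowest at 0.308.

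The median coefficient of variation of the members over the 16 libraries was 11.0%, against 20.6% for all genes tested. All but 3 members averaged at least 5 CPM, a level that 9344 genes reached, where 14488 were tested. No comparison with genes of like level was made. The members were also shorter, with a median length of 3025 bases against 4039. Members lay on 18 chromosomes. Some could share reads with other genes: 41 members overlap another gene in the deposited coordinates, 9 of them on the same strand and 32 only on the opposite strand, and the use of strand in counting is not given in the sources used here. Mrpl23, Mrpl27, Mrpl48 and Mrps36 also have processed pseudogenes in the tables. These 5 copies were not counted as members and had mean levels of 0.119 to 1.73 CPM.

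Summed over the 94 members, the level in control livers was 3423 ± 84.9 CPM fasted and 3485 ± 164 refed, and in LKO livers 3311 ± 111 fasted and 3753 ± 168 refed (SD, n = 4). As each library's median log2 deviation from the members' own means, the 4 refed LKO libraries lay between 0.078 and 0.215 and the 4 fasted LKO libraries between -0.149 and -0.062. Fasted control (-0.055 to 0.034) and refed control (-0.091 to 0.054) overlapped each other. On this measure the 4 refed LKO libraries were above all 12 others for the members as a whole, for the large subunit and for the synthetases. For the small subunit 1 refed control library (0.098) was above 2 refed LKO libraries (0.078 and 0.087).

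**Figure D1:**
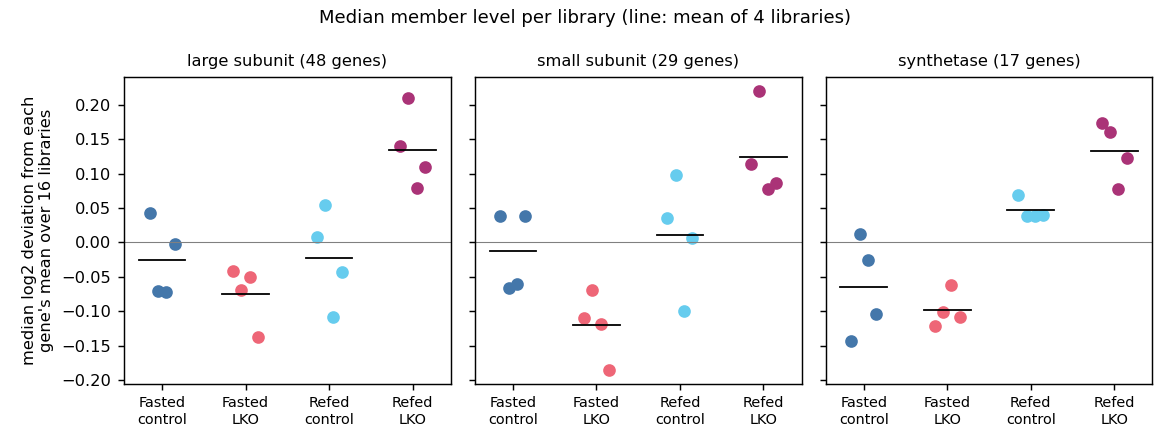
Median log2 deviation of the members from each gene's mean over 16 libraries, per library (points; vertical axis), for the large subunit (48 genes), small subunit (29) and synthetases (17), by group (horizontal axis), with lines at the mean of the 4 libraries. Refed LKO libraries lie above 0 and fasted LKO libraries below 0 in all 3 panels, with both control groups mostly between them.

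Refeeding of LKO livers gave the widest response of these genes. After 6 h of food 33 members rose and 1, Lars2, fell. These 34 are 36.2% of the members, where 18.1% of all genes tested were called (9.28% higher and 8.78% lower). With only genes averaging at least 5 CPM fitted, a level that all but 3 members reached, 24.5% of 9344 genes were called. The rises were 13 of 48 large subunit genes, 13 of 29 small subunit genes and 7 of 17 synthetases. The median log2 fold change of the members was 0.20, against -0.02 for all genes tested, and 88 of 94 were above 0. Individual changes were modest, from 0.25 to 0.84 on the log2 scale among those that rose. Without library S53 the count of members called was 22, beside 14.8% of all genes tested. With the level of Rn18s-rs5, a ribosomal RNA gene model, as a covariate, a setting added after seeing the data, it was 20, beside 13.7%.

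Mrps27 (chr13:99481294-99552070, mm39), a small subunit protein of the pentatricopeptide repeat family, had the smallest p of the members. Its level was 20.4, 21.8, 18.3 and 19.5 CPM in the fasted LKO libraries and 33.9, 40.4, 32.6 and 33.8 CPM in the refed ones. In control livers it was 25.4, 26.3, 27.9 and 24.3 CPM fasted and 36.4, 39.7, 32.8 and 31.6 CPM refed. Fasted LKO libraries were thus the lowest of all, and the refed groups of the 2 genotypes overlapped. The refeeding change was a log2 fold change of 0.81 ± 0.09 (SE; 1.76-fold; adjusted p = 4.8e-05) in LKO and 0.43 ± 0.09 (1.35-fold; adjusted p = 0.0057) in control livers.

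Mrpl38 (chr11:116022643-116029694, mm39), a protein of the central protuberance of the large subunit, rose with refeeding in LKO livers by 0.48 ± 0.07 (adjusted p = 0.00027). It stood at 66.7, 67.9, 70.7 and 67.1 CPM in fasted LKO and at 94.5, 101, 95.3 and 89.1 CPM in refed LKO. In control livers it was 97.1, 90.7, 84.2 and 85.7 CPM fasted and 93.0, 95.2, 84.9 and 85.1 CPM refed, a log2 fold change of 0.00 ± 0.07 (adjusted p = 0.99). The 4 fasted LKO libraries were below all 12 others, which overlapped one another.

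Mrps36 (chr13:100872463-100881167, mm39) is named for the small subunit but is known as a component of the 2-oxoglutarate dehydrogenase complex. It followed the same course, at 6.14, 7.69, 7.40 and 7.52 CPM in fasted LKO and 11.7, 12.7, 11.4 and 10.6 CPM in refed LKO (log2 fold change 0.69 ± 0.12, adjusted p = 0.00073). Fasted control (9.67 to 12.4 CPM) and refed control (9.35 to 11.9 CPM) overlapped, with a difference of 0.04 ± 0.11. Its 2 pseudogenes, at 0.119 and 0.184 CPM, were far below it.

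Of the synthetases, Mars2, Sars2 (serine) and Aars2 (alanine, named after its values were seen) had the largest rises on refeeding in LKO livers. Mars2 went from 2.40, 2.32, 2.19 and 3.42 CPM fasted to 5.53, 4.58, 3.28 and 5.02 CPM refed. The change was 0.84 ± 0.18 (adjusted p = 0.0046), although 1 refed library lay below the highest fasted one. Sars2 rose by 0.60 ± 0.13, from 11.6 to 14.5 CPM fasted to 18.1 to 22.6 CPM refed (adjusted p = 0.0040), and Aars2 rose by 0.53 ± 0.08, from 18.5 to 21.1 CPM to 27.7 to 30.3 CPM (adjusted p = 0.0005). Sars2 and Mrps12 are next to each other on chromosome 7 and point in opposite directions. Mrps12 rose by 0.26 ± 0.09 (adjusted p = 0.047), just inside the threshold, while Mrpl22 at 0.22 ± 0.07 was the nearest outside it (adjusted p = 0.050).

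In control livers 8 members rose on refeeding and 4 fell. These are 12.8% of the members, where 15.4% of all genes tested were called (7.79% higher and 7.65% lower). Among the 9344 genes averaging at least 5 CPM, fitted alone, 24.2% were called. The members' median was 0.00 and that of all genes 0.01. Those that rose were Lars2 (1.10), Mars2 (0.65), Wars2 for tryptophan (0.58), Mrps22 (0.48), Mrps27 (0.43), Mrpl18 (0.39), Mrpl19 (0.37) and Mrpl1 (0.27). Those that fell were Mrpl41 (-0.36), Mrps26 (-0.33), Mrps18a (-0.29) and Mrps24 (-0.28). Mrps18a, though named for the small subunit, is placed in the large subunit in solved structures. The count was 6 without S40, 5 without S43, 7 without S48, 7 without S49 and 6 without S50. In those fits 8.28% (without S40) to 12.2% (without S49) of all genes tested were called. Mrpl1, Mrpl19, Mrps26 and Mrps18a kept their call in 1, 3, 2 and 2 of the 8 fits that each left out a fasted or refed control library.

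The refeeding comparisons of the 2 genotypes share no library. Members called in both numbered 7, which is 58.3% of those called in control and 20.6% of those called in LKO livers. The direction was the same for 6, Mars2, Mrpl1, Mrpl18, Mrpl19, Mrps22 and Mrps27, all of which rose, and opposite for Lars2. Over all genes tested 936 were called in both, 41.8% and 35.8% of the 2 sets of calls.

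Mrps22 (chr9:98470783-98483713, mm39), a small subunit protein, and Mrpl18 (chr17:13130236-13135232), which is reported to help carry 5S rRNA into mitochondria, show the shared rise. Mrps22 was 17.4, 17.7, 17.8 and 14.9 CPM in fasted control and 25.5, 25.9, 24.4 and 19.1 CPM in refed control. In LKO livers it was 16.2, 18.2, 18.7 and 15.5 CPM fasted and 28.1, 27.8, 24.8 and 24.6 CPM refed (0.62 ± 0.10, adjusted p = 0.00072). No refed library of either genotype was as low as any fasted one.

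Mrpl18 rose from 47.8 ± 1.84 CPM to 62.5 ± 4.16 CPM in control livers (SD, n = 4). In LKO livers it was 40.03, 49.95, 44.9 and 45.1 CPM fasted and 73.5, 65.1, 59.7 and 60.7 CPM refed. The log2 fold changes were 0.39 ± 0.08 (adjusted p = 0.0064) and 0.53 ± 0.08 (adjusted p = 0.00051). Mrpl18 overlaps Tcp1, a chaperonin subunit gene on the opposite strand with a mean of 117 CPM, so reads of the pair cannot be told apart without strand.

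**Figure D2:**
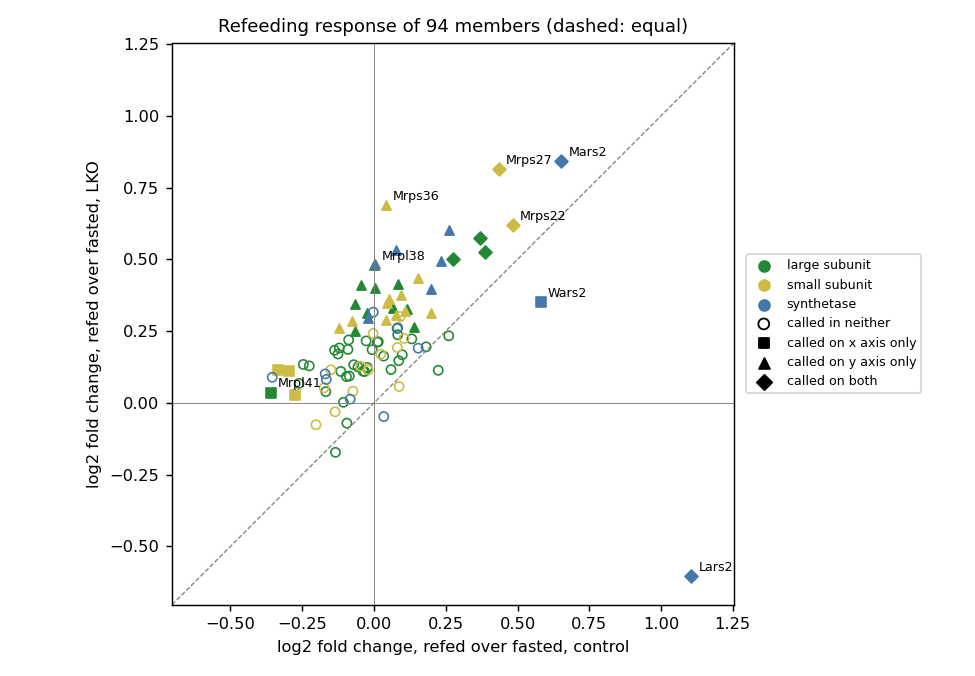
Log2 fold change on refeeding of each member in control livers (horizontal axis) and in LKO livers (vertical axis), coloured by role, with shapes for the comparisons in which it was called and a dashed line of equal response. Most points lie above the line, and Lars2, at 1.10 and -0.60, lies far below it.

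Promoters are shown for the members that rose on refeeding in both genotypes and held a match to a motif searched. They are RefSeq sequences of GRCm38.p6, from 250 bases before to 50 bases after the gene's start, on the strand of the gene. The capitals mark CCGGAAGT, the core letters bound by ETS factors such as GABP, and, nearest the 3′ end of Mrps27, the YY1 motif, in either orientation. The Mrps27 promoter is chr13:99344536-99344835 (plus strand), that of Mrps22 is chr9:98601630-98601929 (minus strand), and that of Mrpl18 is chr17:12916042-12916341 (minus strand).
Mrps27: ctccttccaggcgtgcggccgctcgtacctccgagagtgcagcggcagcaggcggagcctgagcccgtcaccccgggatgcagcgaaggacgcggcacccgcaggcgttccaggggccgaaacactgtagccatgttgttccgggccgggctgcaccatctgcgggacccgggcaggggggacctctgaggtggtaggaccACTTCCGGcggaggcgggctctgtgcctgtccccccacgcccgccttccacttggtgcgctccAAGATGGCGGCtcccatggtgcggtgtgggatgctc
Mrps22: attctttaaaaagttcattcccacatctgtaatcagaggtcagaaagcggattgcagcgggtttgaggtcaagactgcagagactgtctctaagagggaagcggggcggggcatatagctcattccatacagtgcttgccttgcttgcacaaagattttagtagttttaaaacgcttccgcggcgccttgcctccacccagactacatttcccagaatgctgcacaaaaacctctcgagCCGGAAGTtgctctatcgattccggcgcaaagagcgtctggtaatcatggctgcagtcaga
Mrpl18: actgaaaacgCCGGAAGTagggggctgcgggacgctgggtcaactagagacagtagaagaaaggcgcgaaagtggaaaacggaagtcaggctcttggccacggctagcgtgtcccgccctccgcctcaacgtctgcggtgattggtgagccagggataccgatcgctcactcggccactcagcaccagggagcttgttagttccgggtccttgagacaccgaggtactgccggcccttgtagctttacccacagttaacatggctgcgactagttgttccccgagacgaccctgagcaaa

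Of the 94 members 82 matched the promoter table. A gene was counted where any of its listed promoters held the match, and some members, such as Mrpl48, have several. The ETS letters were found for 13 of these members (15.9%), against 8.62% of all genes tested that matched the promoter table and 4.31% of all genes in it. The YY1 motif was found for 6 (7.32%, against 1.73% and 0.755%), the palindromic NRF1 motif for 3 (3.66%, against 2.21% and 1.07%) and CACGTG, the E-box palindrome, for 6 (7.32%, against 11.6% and 8.09%). All were searched on both strands. Of the 30 such members that rose on refeeding in LKO livers 3 held the ETS letters (10%), and of the other 52 members 10 did (19.2%). The promoters of Mars2 and Mrpl1 held none of the 4 motifs.

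Some markers of dividing cells moved with the refeeding of LKO livers. Cdk1 and Top2a, 2 of the 4 proliferation markers tested, rose, and the summed level of the list was 3.19 to 8.14 CPM in fasted LKO and 4.20 to 16.9 CPM in refed LKO libraries. Of the 4 markers 3 were above 0 and 1 was below (log2 fold change -0.20), and limma-voom called only Top2a. In control livers it was 4.36 to 7.35 CPM fasted and 2.62 to 5.52 CPM refed, and no marker of the list was at 0 in a whole group. With these markers' mean log2 CPM as a covariate, a setting added after seeing the data, 18 members were called on refeeding in LKO livers, all upward, beside 8.9% of all genes tested. Among the other marker lists Plin4 (1 of 3 adipocyte markers) and Krt19 (1 of 5 cholangiocyte markers) fell in that comparison. All 3 adipocyte and all 5 cholangiocyte markers were below 0, and neither DESeq2 nor limma-voom called Krt19. Lrat and Reln (2 of 7 stellate markers) rose in control livers, where 3 of the 7 were above 0 and 4 below (median log2 fold change -0.30). The part of all these markers in the result was not tested.

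In the fasted state 10 members were lower in LKO than in control livers and 1, Lars2, was higher. These 11 are 11.7% of the members, near the 12.2% of all genes tested that were called (5.75% higher and 6.48% lower). In a separate fit of only the 9344 genes averaging at least 5 CPM, 19.4% were called, whereas the 11.7% comes from the fit of all 14488 genes. The large subunit genes that fell were Mrpl23 (-0.49), Mrpl34 (-0.42), Mrpl38 (-0.39) and Mrpl14 (-0.36). Of those named for the small subunit, Mrps36 (-0.55), Mrps27 (-0.38) and Mrps24 (-0.31) fell. The synthetases that fell were Nars2 for asparagine (-0.59), Aars2 (-0.35) and Fars2 for phenylalanine (-0.22). The members' median was -0.06, against 0.02 for all genes tested, and 64 of 94 were below 0. This comparison shares the fasted LKO libraries with the refeeding comparison above, so a gene low in those libraries enters both.

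Nars2 fell the most. It was 13.6, 14.2, 17.2 and 12.9 CPM in fasted control and 7.84, 11.9, 8.80 and 9.95 CPM in fasted LKO (log2 fold change -0.59 ± 0.13, adjusted p = 0.0063). Mrpl34, a small protein of the large subunit, was nearly constant in fasted LKO, at 44.4, 43.7, 44.4 and 44.1 CPM in fasted LKO against 58.6, 55.3, 60.9 and 61.3 CPM in fasted control (-0.42 ± 0.07, adjusted p = 0.0018). Mrpl23 was 25.2 to 32.8 CPM in fasted LKO and 35.1 to 42.3 CPM in fasted control (-0.49 ± 0.10, adjusted p = 0.0058). None of these 3 genes overlapped between the 2 groups.

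Mrpl14 (-0.36 ± 0.09, adjusted p = 0.012), Mrps24 (-0.31 ± 0.07, adjusted p = 0.013) and Fars2 (-0.22 ± 0.06, adjusted p = 0.025) overlap other expressed genes. Tmem63b at 79.1 CPM and Nrn1 at 109 CPM lie on the opposite strand of Mrpl14 (72.9 CPM) and Fars2 (35.5 CPM), and Urgcp at 28.7 CPM lies on the same strand as Mrps24 (70.7 CPM). Their calls are uncertain to the extent that reads were shared. Fars2 missed the threshold without S40, S43, S44 or S47 (adjusted p up to 0.068), and Mrps24 with the trend on gene length removed (-0.21, adjusted p = 0.063). Mrpl14, Mrpl23, Mrpl34, Mrpl38, Mrps27, Mrps36 and Nars2 kept their call in each of the 8 fits that left out a library of the comparison.

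Hepatocyte markers moved with this comparison. Asgr1, Serpina1c and Ttr, 3 of the 8 listed, fell, and the summed level of the list was 57003 to 65238 CPM in fasted LKO and 68082 to 76099 CPM in fasted control, without overlap. None was at 0 in a group. Cfd (1 of 3 adipocyte markers) and Alas2 (1 of 4 red cell markers) also fell, and Dcn (1 of 7 stellate markers) rose. Above 0 were 1 of the 3 adipocyte, 0 of the 4 red cell and 4 of the 7 stellate markers. The part of all these markers in the result was not tested.

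In the refed state 4 members were higher in LKO than in control livers, which is 4.26% of the members, near the 3.63% of all genes tested that were called (2.28% higher and 1.35% lower). Among the 9344 genes averaging at least 5 CPM, fitted alone, 4.96% were called. With edgeR 0 members were lower at an adjusted p under 0.05 and 1, Lars2, at an unadjusted p under 0.05, where 8.74% of all genes tested were lower by that rule, and DESeq2 called Lars2 lower (log2 fold change -0.63, adjusted p = 0.017). With limma-voom 0 members were called lower. The 4 higher members were Mrpl41, Mrpl50, Tars2 for threonine and Mrps33. The members' median was 0.14, against -0.01 for all genes tested, and 82 of 94 were above 0.

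Mrpl41 (chr2:24864129-24865110, mm39), a large subunit protein, was 17.6, 21.7, 20.3 and 21.4 CPM in refed control and 26.4, 31.6, 27.6 and 28.4 CPM in refed LKO. The groups did not overlap, and the log2 fold change was 0.49 ± 0.10 (1.40-fold, adjusted p = 0.015). In the fasted state it was 24.4, 22.2, 28.8 and 28.7 CPM in control and 27.2, 29.8, 29.4 and 24.7 CPM in LKO libraries, so the refed control libraries were the low ones.

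Mrpl50 (chr4:49512596-49521093, mm39), also of the large subunit, was instead highest in refed LKO. It was 52.8, 53.1, 57.5 and 61.5 CPM there and 44.7, 44.2, 48.1 and 42.6 CPM in refed control (0.32 ± 0.07, adjusted p = 0.023). Both fasted groups lay between 39.7 and 45.8 CPM. Tars2 (0.33 ± 0.08, adjusted p = 0.037) and Mrps33 (0.29 ± 0.08, adjusted p = 0.046) were nearer the threshold, and Mrpl22 was just outside it (0.27 ± 0.07, adjusted p = 0.051).

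These 4 calls rested on few libraries. The count was 2 without S41, S42, S50 or S53, 1 without S49 or S55 and 0 without S48, fits in which 1.33% (without S48) to 2.97% (without S41) of all genes tested were called. Mrpl41 lost its call without S48 (adjusted p = 0.058), and Mrpl50, Tars2 and Mrps33 kept theirs in 3, 2 and 2 of the 8 fits that each left out a refed library. The proliferation markers Cdk1 and Top2a were higher in refed LKO than in refed control livers too. So was Clec4g (1 of 6 endothelial markers), and Plin4 (1 of 3 adipocyte markers) was lower. Of the 6 endothelial markers 3 were above 0 and 3 below, and all 3 adipocyte markers were below 0. With limma-voom 0 of the 4 proliferation markers passed in that comparison. Of the 8 macrophage markers 0 passed in edgeR, DESeq2 or limma-voom, and all 8 were below 0 in edgeR (median log2 fold change -0.76) and 5 were lower at an unadjusted p under 0.05. Their summed level was 226 to 334 CPM in refed LKO and 215 to 822 CPM in refed control libraries. Of the 8 hepatocyte markers 0 passed in edgeR or limma-voom and 2 in DESeq2 (1 higher, 1 lower). In edgeR 7 were below 0, and 3 had an unadjusted p under 0.05, 2 of them lower, with summed levels of 58113 to 71527 CPM in refed LKO and 65610 to 86656 CPM in refed control libraries. No marker of either list was at 0 in a group, and their part in the result was not tested. With the proliferation markers as a covariate 1 member was called, beside 1.15% of all genes tested.

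**Figure D3:**
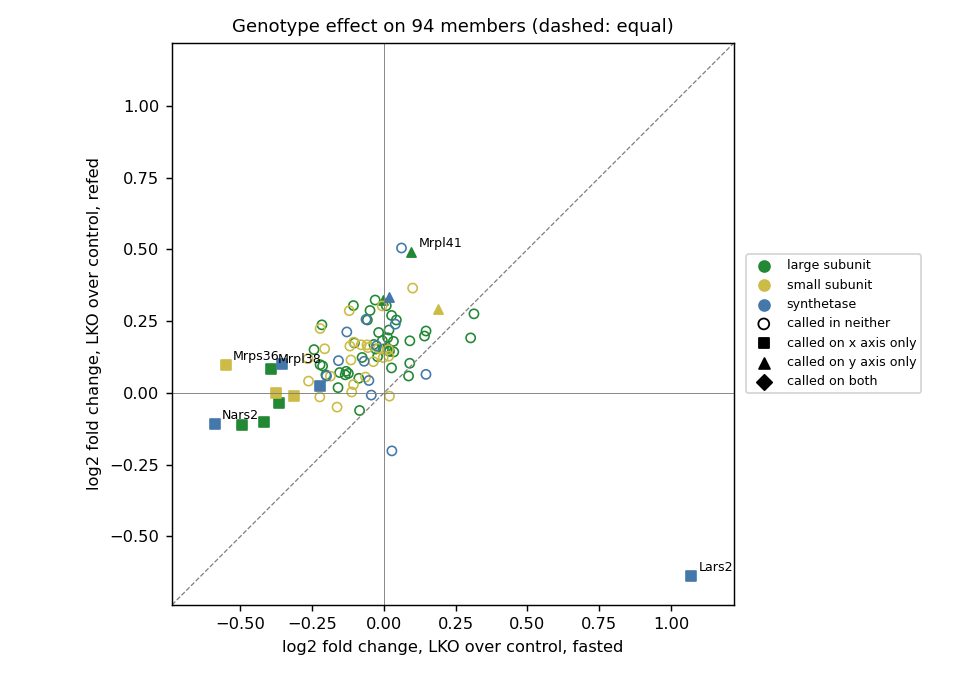
Log2 fold change of LKO over control of each member in the fasted state (horizontal axis) and in the refed state (vertical axis), coloured by role, with shapes for the comparisons in which it was called and a dashed line of equal effect. No member was called in both states, and most points lie above the line.

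Whether the genotype effect changed with feeding state, or equally whether the refeeding response changed with genotype, was tested as an interaction. It was above 0 for 87 of 94 members, with a median of 0.21, against -0.01 over all genes tested, of which 48.5% were above 0. Single genes passed rarely: 2 members, Lars2 and Mrpl38, were called (2.13%), where 0.538% of all genes were (0.311% higher and 0.228% lower, which is 45 and 33 genes, or 43 and 65 with upper quartile scaling). In a separate fit of only genes averaging at least 5 CPM, 2.11% of 9344 genes were called. The members' 2.13% comes from the fit of all 14488 genes. Mrpl38 had an interaction of 0.48 ± 0.10 (adjusted p = 0.043). It kept that call without S45 and without S49 and missed it in the other 14 fits that left out a library, with adjusted p up to 0.094. The count of members called was 5 without S45, where 1.22% of all genes tested were called, and 4 without S49, where 1.91% were. It was 1 in each of those 14 fits, in which 0.0542% (without S48) to 0.624% (without S47) of all genes tested were called. Mrps36 (0.65 ± 0.16, adjusted p = 0.070) and Aars2 (0.46 ± 0.12, adjusted p = 0.073) came next and did not pass.

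**Figure D4:**
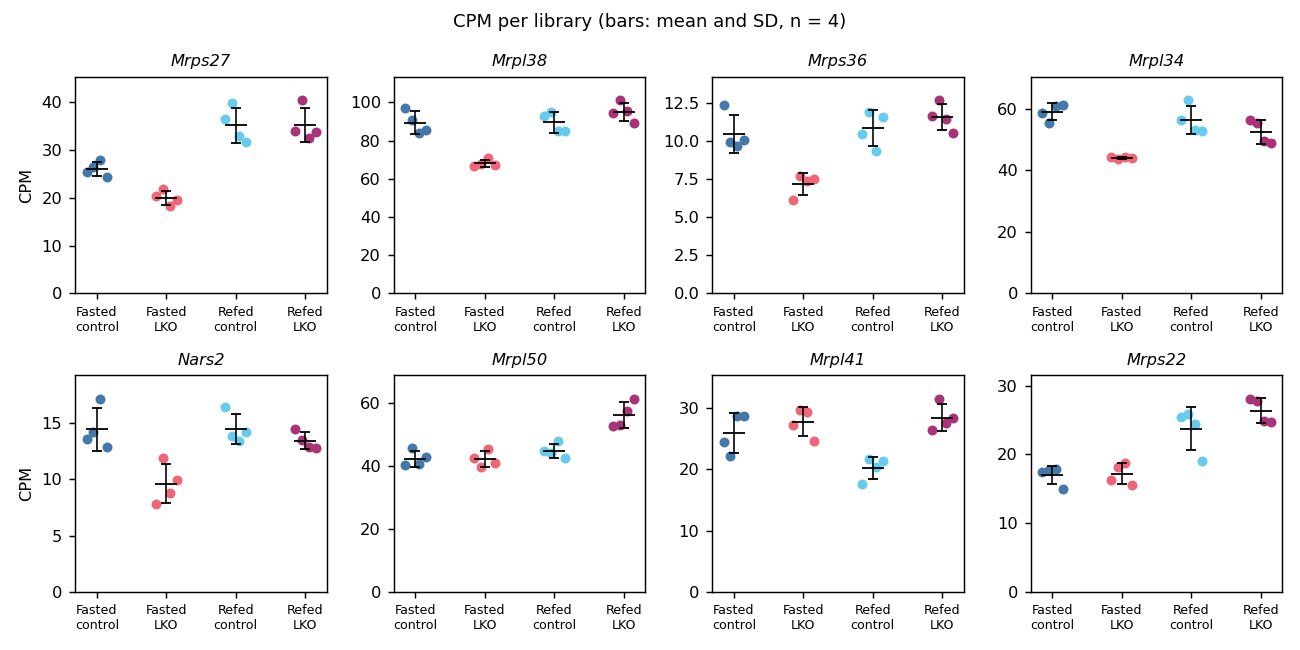
CPM of 8 members in each library by group (points), with the mean and SD of 4 libraries (bars). Mrps27, Mrpl38, Mrps36, Mrpl34 and Nars2 are lowest in fasted LKO, Mrpl50 is highest in refed LKO, Mrpl41 is lowest in refed control, and Mrps22 is higher in both refed groups.

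Lars2 (chr9:123195992-123291731, mm39), the mitochondrial leucyl-tRNA synthetase gene, had a course of its own. In control livers it was 64.3, 62.0, 91.3 and 62.6 CPM fasted and 175, 181, 132 and 115 CPM refed. In LKO livers it was 124, 127, 196 and 142 CPM fasted and 110, 86.8, 81.8 and 109 CPM refed. Fasted LKO and refed control were thus the high groups, fasted control was the lowest but for S42, and neither genotype's fasted and refed libraries overlapped. It was 2.10-fold higher in LKO in the fasted state (log2 fold change 1.07 ± 0.18, adjusted p = 0.0016). Refeeding raised it 2.15-fold in control livers (1.10 ± 0.18, adjusted p = 0.0014) and lowered it in LKO livers (-0.60 ± 0.18, adjusted p = 0.028). The interaction was -1.71 ± 0.26 (adjusted p = 0.017) and passed in each of the 16 fits that left out a library. The fall on refeeding in LKO livers missed the threshold without S46, S53 or S54 (adjusted p up to 0.10), and the refed difference of -0.64 ± 0.18 did not pass (adjusted p = 0.059).

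Counts of Lars2 moved with those of Rn18s-rs5, 1 of the 5 ribosomal RNA gene models tested. Rn18s-rs5, a gene model of the cytosolic 18S rRNA that RefSeq also lists as Gm42418, was 2638, 2506, 3912 and 2104 CPM in fasted control and 3644, 2990, 4337 and 3676 CPM in fasted LKO. It was 4871, 4657, 4111 and 3182 CPM in refed control and 3038, 1996, 1935 and 2475 CPM in refed LKO. In fasted control (S42), fasted LKO (S46) and refed LKO (S52) the library with the most Lars2 also had the most Rn18s-rs5.

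Over the 16 libraries Lars2 and Rn18s-rs5 had a Pearson r of 0.81 in log2 CPM (permutation test, p = 0.00021, 0.00063 after Benjamini-Hochberg adjustment over 3 relations) and a Spearman rho of 0.83 (permutation p = 0.00017, adjusted 0.00051). Without S48 and S54, the libraries farthest from the median of Rn18s-rs5, r was 0.79, and on deviations from the group means it was 0.87 (permutation p = 0.0003). The summed ribosomal RNA models gave an r of 0.64 (permutation p = 0.0074, adjusted 0.011; rho 0.67, p = 0.0053, adjusted 0.0079). That sum includes the mitochondrial rRNAs and Rn18s-rs5, which made up most of it (a mean of 2790 of 4157 CPM in fasted control), so it is not a separate relation. The mitochondrial rRNAs mt-Rnr1 and mt-Rnr2, summed, gave -0.45 (permutation p = 0.083, adjusted 0.083; rho -0.31, p = 0.25, adjusted 0.25). Singly and without a test, the models other than Rn18s-rs5 had r of 0.018 (AY036118), -0.315 (Gm10925), -0.505 (mt-Rnr1) and -0.401 (mt-Rnr2).

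Per 1000 counts of Rn18s-rs5, Lars2 was 25.6 ± 2.87 fasted and 35.7 ± 2.81 refed in control livers, and 40.04 ± 4.82 fasted and 41.5 ± 3.64 refed in LKO livers (SD, n = 4). With the log2 CPM of Rn18s-rs5 as a covariate, a setting added after seeing the data, the rise in fasted LKO was 0.73 and was still called, the interaction was -0.66 (adjusted p = 0.38) and the fall on refeeding in LKO livers was -0.07 (adjusted p = 0.80). The genes whose log2 CPM followed Lars2 most closely over the 16 libraries were the miRNA gene model ENSMUSG00002076173 on chromosome 16 (r = 0.917), the nuclear noncoding RNA Malat1 (0.897), BC005537 (0.870), Ednrb, an endothelin receptor (0.867), and Ube4a, a ubiquitin ligase (0.852). Rn18s-rs5 was the gene of rank 9. These values are descriptions, and the points share the libraries and their depth.

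In the GENCODE M21 annotation, the transcript Lars2-201 is 3894 bases long with a 3′ UTR from base 2906. A run of 52 bases in that UTR, from base 3278 to 3329, is also in the noncoding gene model Gm15564. The longest run shared with Gm42418 or AY036118 was 12 bases. How far reads of ribosomal RNA entered the Lars2 count was not tested.

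**Figure D5:**
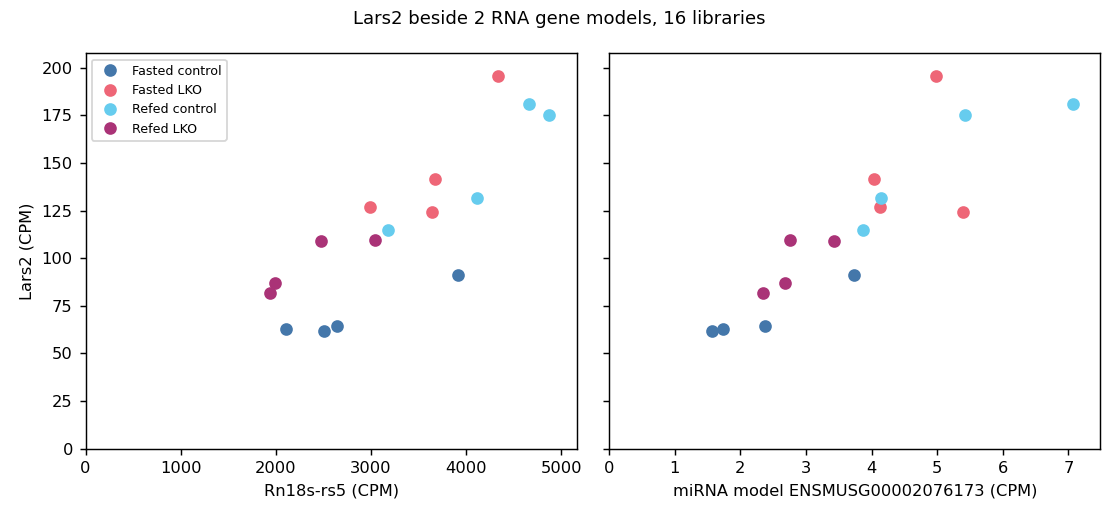
CPM of Lars2 (vertical axis) against CPM of Rn18s-rs5 (left) and of the miRNA gene model ENSMUSG00002076173 (right) in 16 libraries, coloured by group. Lars2 is higher where either model is higher, and the fasted control libraries lie lowest for their Rn18s-rs5 level.

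The rRNAs of the mitochondrial ribosome are encoded in mitochondrial DNA. mt-Rnr1, the small subunit rRNA of the mitochondrial ribosome, averaged 516 CPM fasted and 292 CPM refed in control livers, and 370 CPM fasted and 281 CPM refed in LKO livers. It fell in fasted LKO (-0.48 ± 0.11, adjusted p = 0.0084) and fell on refeeding in control (-0.82 ± 0.11, adjusted p = 0.00037) and in LKO livers (-0.40 ± 0.11, adjusted p = 0.016). mt-Rnr2, of the large subunit, fell on refeeding by 0.82 in control (adjusted p = 0.0080) and by 0.57 in LKO livers (adjusted p = 0.039). Its difference in fasted LKO against fasted control did not pass (-0.38 ± 0.18, adjusted p = 0.20). mRNA was selected on oligo-dT beads per the labels' protocols, so these levels are what passed that selection.

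Other genes of mitochondrial translation moved in both directions. Of 24 genes for ribosome assembly and rRNA modification, 6 rose and 2 fell on refeeding in LKO livers (33.3%, where 18.1% of all genes tested were called), and 1 rose and 4 fell in control livers (20.8%, where 15.4% were called). The GTPases Noa1 (0.50 ± 0.11) and Eral1 (0.38 ± 0.07) and the rRNA methyltransferases Mrm3 (0.44 ± 0.12) and Mrm2 (0.34 ± 0.10) were among the rises in LKO livers, and Mterf4 (-0.59 ± 0.13) and the helicase Ddx28 (-0.44 ± 0.11) were the falls. In control livers Fastkd2 rose (0.47 ± 0.15), and Ddx28 (-0.49 ± 0.12), Malsu1 (-0.45 ± 0.10), Rbfa (-0.44 ± 0.12) and Mettl17 (-0.38 ± 0.11) fell. Ddx28 thus fell with refeeding in both genotypes.

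Of 14 translation factors, 2 rose and 2 fell on refeeding in LKO livers (28.6%, beside the same 18.1% of all genes). The elongation factors Tsfm (0.39 ± 0.08) and Gfm1 (0.25 ± 0.07) rose, and the initiation factor Mtif3 (-0.34 ± 0.11) and Oxa1l (-0.33 ± 0.08), which inserts new proteins into the inner membrane, fell. In control livers Gfm1 rose, and Oxa1l and the rescue factor Mtrfr fell (21.4% of the list, beside 15.4% of all genes). Of 21 genes for tRNA maturation 4 rose and 1 fell in LKO livers (23.8%, beside 18.1%), led by the phosphodiesterase Pde12 (0.90 ± 0.13, adjusted p = 0.00031), and 3 rose and 1 fell in control livers (19%, beside 15.4%). Trit1, which modifies tRNAs, fell in LKO livers on refeeding (-0.35 ± 0.10) and was higher in fasted LKO than in fasted control (0.69 ± 0.10, adjusted p = 0.00071).

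Of 19 genes for mitochondrial DNA expression and its regulators, 1 rose and 2 fell on refeeding in LKO livers (Lrpprc 0.30 ± 0.08, Ppargc1b -0.96 ± 0.28 and Polg -0.45 ± 0.12), which is 15.8% beside the 18.1% of all genes. In control livers only Esrra, an orphan receptor that acts on mitochondrial genes, was called (-0.25 ± 0.08). In fasted LKO, Gabpb1, a subunit of GABP, rose (0.62 ± 0.14, adjusted p = 0.0092) and Esrra fell (-0.27 ± 0.08, adjusted p = 0.038). Of 5 further ribosomal proteins Ptcd3 rose on refeeding in both genotypes (0.43 ± 0.10 in each), and Gadd45gip1 fell in fasted LKO (-0.49 ± 0.14).

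Of 20 synthetases that act in the cytosol, some of them also in mitochondria, 6 rose on refeeding in control livers (30%, where 7.79% of all genes tested rose) and 5 in LKO livers (25%, where 9.28% did). In control livers the largest were Iars (0.50 ± 0.10), Farsb (0.47 ± 0.08), Nars (0.37 ± 0.09) and Aars (0.34 ± 0.11), and in LKO livers Aars (0.54 ± 0.11), Wars (0.49 ± 0.08), Farsa (0.49 ± 0.09) and Yars (0.36 ± 0.10). Their summed level was 1069 ± 66.4 CPM in fasted control and 1239 ± 36.5 in refed control, and 1056 ± 29.7 in fasted LKO and 1225 ± 49.3 in refed LKO (SD, n = 4). The mitochondrial synthetases without Lars2 were 299 ± 7.43 and 306 ± 6.07 CPM in control livers and 281 ± 8.66 and 330 ± 9.10 CPM in LKO livers, fasted and refed.

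In the authors' deposited table of each comparison, members with an adjusted p under 0.05 numbered 10 in fasted LKO against control (1 higher, 9 lower). They numbered 5 in refed LKO against control (4 higher, 1 lower). On refeeding they numbered 9 in control (6 higher, 3 lower) and 29 in LKO livers (28 higher, 1 lower). The share of all genes under that threshold in the authors' tables was not computed, so these counts have no background beside them.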

How the data were processed

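Gene-level read counts of the 16 libraries come from the authors' 4 deposited tables, 1 for each comparison. The deposited tables also hold a normalized signal per group, log2 fold changes, p-values and gene lengths, of which the authors' adjusted p-values and log2 signs were used only for the counts credited to them. Reads were aligned with HISAT2 2.0.5 to mm39 per the submitters' processing notes; the counting tool, its use of strand and the annotation are not given in the sources used here. Per-library FPKM and normalized values, 64 columns, went unused. The tables were joined on gene identifier, 0 counts differed between tables, and 3148 genes absent from a library's tables were set to 0 there, none a member. No replicate number could be tied to a column. Every pair of replicate libraries differed by more than sampling noise.

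The fit used edgeR 4.0.16 (R 4.3.3): genes passing filterByExpr, TMM scaling, 1 factor of 4 groups in glmQLFit, and 5 contrasts tested by glmQLFTest. CPM are counts per 1000000 of the TMM-scaled total. SE is the log2 fold change divided by the square root of F. Correlations used 100000 permutations, two-sided, over log2 CPM with a prior count of 2. The procedure was tested on simulated data. DESeq2 1.42.0, limma 3.58.1 (voom), other scalings, filters and left-out libraries were alternatives.

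Members, lists and tests were chosen with earlier results of these data known. Named genes were, by a written rule, Lars2, up to 6 called members per contrast and direction with the largest change, the 3 smallest p where fewer passed, the 2 highest and the lowest of each role, up to 4 called genes per pathway list and contrast, the 5 genes closest to Lars2, and members at the threshold. Aars2 and single genes of the marker and pathway lists beyond it were picked after their values were seen.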

Additional observations from a re-analysis of the deposited data

Results flagged for a closer look

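In 10 of the 116 sets of 4 libraries examined for the members named here, 1 library stood apart from the other 3 by Dixon's test at its 95% critical value. Chance alone marks about 1 in 20 such sets. In fasted control these were Lars2 in S42 (91.3 CPM, the others 62.0 to 64.3), Fars2 in S40 (40.2, the others 38.4 to 38.6), Mrps36 in S40 (12.4, the others 9.67 to 10.1) and Mrps22 in S43 (14.9, the others 17.4 to 17.8). In fasted LKO it was Mars2 in S47 (3.42, the others 2.19 to 2.40). In refed control they were Mars2 in S49 (4.67, the others 3.90 to 3.96), Mrps12 in S49 (46.5, the others 53.1 to 53.3), Fars2 in S50 (33.3, the others 35.0 to 35.2), Tars2 in S50 (25.2, the others 29.3 to 29.6) and Mrps33 in S51 (19.4, the others 17.3 to 17.6).

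The genotype effect differed between the feeding states, by the interaction test in edgeR, for Lars2 (refed minus fasted, log2 -1.71) and for Mrpl38 (0.48). S42, the library in which Lars2 stood apart, also had the highest Rn18s-rs5 of its group, at 3912 CPM against 2104 to 2638.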

How the results depend on the processing

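The members' medians kept their direction and moved by less than the spread between libraries under every scaling, tool, filter and covariate run, except that the median on refeeding in control, 0.002, ran from -0.007 (filter of 5 CPM) to 0.053 (length trend removed). Counts of members called moved as follows. In refed LKO against control 4 became 8 with DESeq2 (all genes called rose from 3.63% to 6.38%). The count became 2 with the trend on gene length removed (3.52% of all genes). It became 1 with no filter (1.85%) or with only the 2 groups fitted (2.87%). On refeeding in control 12, beside 15.4% of all genes, became 7 with no filter (6.52%) or only the 2 groups (14.5%). It became 6 with the length trend removed (13.5%). The interaction count of 2 became 6 with DESeq2 (all genes from 0.538% to 3.16%) and 1 with no filter (0.267%) or the length trend removed (0.255%). With Rn18s-rs5 as a covariate, added after seeing the data, the counts were 0 in refed LKO against control (0.407% of all genes) and 1 on refeeding in control (1.22%). They were 20 on refeeding in LKO (34 before), beside 13.7% of all genes, and 0 for the interaction. With the proliferation markers, also added, they were 1 in refed LKO against control (1.15%), 18 on refeeding in LKO (8.9%) and 0 for the interaction. All genes called fell too, to 0 and 2 for the interaction. The cause was not tested.

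Leaving out each library in turn gave counts of 10 to 14 (fasted genotype), 0 to 5 (refed genotype), 5 to 12 (refeeding in control), 22 to 36 (refeeding in LKO) and 1 to 5 (interaction). The shares of all genes called ran from 7.14% to 13.5%, 1.33% to 4.08%, 8.28% to 16.8%, 12.2% to 18.5% and 0.0542% to 1.91% in that order. The members' medians ran from -0.081 to -0.046, 0.114 to 0.158, -0.009 to 0.026, 0.175 to 0.225 and 0.193 to 0.253 in the same order, and r of Lars2 with Rn18s-rs5 from 0.78 to 0.86. For the 43 called values of single named genes, 110 of 688 fits with a library left out (16.0%) and 67 of 468 fits under other settings (14.3%) lost the call, and 0 called values reversed. The 688 fits include those that left out a library in neither group compared, which lost calls less often.

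No paired analysis was possible because the library columns carry no replicate number. Genes of low count have the least power: Mars2, the lowest member, averaged 3.48 CPM.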
